A study of Drosophila melanogaster with 3 samples.

Results

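The 10 autophagy-related genes Atg1, Atg2, Atg4b, Atg7, Atg8a, Atg9, Atg12, Atg13, Atg17 and Atg18a were examined for binding at their promoters and in their bodies, out of 18277 annotated genes of the fly genome. The genes were chosen by name, with earlier results of these data known. Each was then given every peak whose summit lay within 1 kb of one of its annotated transcript starts or inside the gene. Of the 6469 peaks of the thresholded set, 18 met that rule and fell on 9 of the 10 genes, with Atg13 the exception. The presence and strength of these peaks are therefore part of how the genes came to be described, and they are given as a description with no test.

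Autophagy is the process by which a cell wraps part of its cytoplasm in a membrane, closes it into a vesicle called the autophagosome, and delivers it to the lysosome for breakdown. The Atg proteins act in a sequence: the Atg1 kinase complex starts the process, Atg9, Atg2 and Atg18a supply and shape the membrane, and a pair of ubiquitin-like systems attaches Atg8a to the growing membrane. In Drosophila, the steroid hormone ecdysone triggers autophagy in the fat body at the end of larval life and then in the midgut and salivary glands, around the stage sampled here.

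The assay was chromatin immunoprecipitation followed by sequencing (ChIP-seq) with an antibody against GFP. The material was whole Drosophila melanogaster white prepupae of mixed sex, the stage at which the larva has just formed its puparium. All animals carried a transgene that stably expressed CG8632 with a C-terminal GFP tag. The same gene is named ZnT49B in the annotation, by its name a zinc transporter of membranes. There were 3 biological replicates of this 1 group and no second group, so nothing was compared between conditions.

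All samples came from 1 transgenic line, and the promoter that drives the fusion is not given in the sources used here. Control samples were not analysed here, so whether recovery of DNA depended on the fusion protein was not tested. In whole animals, recovery in a few cells and weak recovery in many cells cannot be told apart, and neither can the tissues.

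The replicate lists held 30000 calls in replicates 1 and 3 and 29322 in replicate 2, and they include background calls on purpose. The signal of a call is the value in column 7 of the deposited lists, as the authors' peak caller gave it, and rank 1 is the strongest call of a list. The thresholded set, made by the authors with an irreproducible discovery rate (IDR) analysis, is called the IDR set here. Its 6469 peaks are the top 6469 calls of the pooled list, so it has no replicates of its own. A replicate's call is called strong here when it was among that replicate's own 6469 strongest, which meant a signal of at least 42.7 in replicate 1, 26.7 in replicate 2 and 41.0 in replicate 3. The scale differs between libraries in this way, so a lower signal in replicate 2 often came with an equal or better rank. Replicates 2 and 3 shared 390 identical intervals, against 0 for replicates 1 and 2 and 3 for replicates 1 and 3. At these genes most calls of replicates 2 and 3 had the same width, and most calls of replicate 1 had another. Calls of unlike width cannot be identical, so these counts do not compare the pairs on equal terms. For each IDR peak, the strongest call of a replicate with a summit within 250 bp of the IDR summit is given. Where calls were matched by nearest summit instead, the overlapping call with the nearest summit was taken.

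The sequences around the summits at 5 of the genes are shown because they carry the strongest peaks or peaks between paired starts. They were read from the RefSeq Release 6 genome (dm6), on the plus strand and 5′ to 3′, and they hold no annotated exon. Capitals mark matches on either strand to the motifs described further on, and a sequence without capitals holds none of them. For Atg2 the window chr3L:2774023-2774322 lies between the start of CG12093 on the left and the start of Atg2 on the right. The stronger summit is at base 82, and a weaker one, at 2774304, is also in the window. For Atg17 the window chr3R:5669374-5669673 lies between the starts of Xe7 and Atg17, with the stronger summit at base 62. A weaker summit, at 5669638, and a DNA replication-related element (DRE, TATCGATA) both lie near its right end. For Atg4b the window chr3R:15356925-15357103 begins at the base beside the start of Atg4b, which reads to the left, with the summit at base 79. For Atg12 the window chr3L:12136718-12136918 has its summit at base 101 and holds a TATAAA and a DRE. For Atg1 the window chr3L:12793081-12793281 lies in an intron, with the summit at base 101.
Atg2: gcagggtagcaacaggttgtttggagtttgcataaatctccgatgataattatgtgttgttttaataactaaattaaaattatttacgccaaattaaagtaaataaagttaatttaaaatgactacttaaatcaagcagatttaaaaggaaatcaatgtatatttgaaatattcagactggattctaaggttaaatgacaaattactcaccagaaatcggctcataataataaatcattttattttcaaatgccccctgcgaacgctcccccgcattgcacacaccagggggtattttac
Atg17: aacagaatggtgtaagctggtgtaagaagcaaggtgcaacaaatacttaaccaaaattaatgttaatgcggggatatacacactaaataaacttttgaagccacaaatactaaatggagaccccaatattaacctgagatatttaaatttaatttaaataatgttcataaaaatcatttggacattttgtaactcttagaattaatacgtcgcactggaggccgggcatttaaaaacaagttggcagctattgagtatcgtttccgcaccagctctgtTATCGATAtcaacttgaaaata
Atg4b: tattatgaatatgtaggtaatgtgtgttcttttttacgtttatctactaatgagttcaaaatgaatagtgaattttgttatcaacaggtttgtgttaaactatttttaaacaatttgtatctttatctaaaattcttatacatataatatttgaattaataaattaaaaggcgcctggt
Atg12: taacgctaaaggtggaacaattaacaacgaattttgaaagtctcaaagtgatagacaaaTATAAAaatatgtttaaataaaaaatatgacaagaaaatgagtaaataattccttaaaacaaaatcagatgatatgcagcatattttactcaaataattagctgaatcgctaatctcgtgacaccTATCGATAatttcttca
Atg1: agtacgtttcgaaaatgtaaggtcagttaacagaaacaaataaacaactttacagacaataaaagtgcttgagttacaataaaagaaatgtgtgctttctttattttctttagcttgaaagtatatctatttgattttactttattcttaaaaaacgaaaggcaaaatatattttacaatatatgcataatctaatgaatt

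By counts, 9 of the 10 genes had an IDR peak by the rule, where 24.5% of the 13968 protein-coding genes did. Within 1 kb of a start, 8 of the 10 genes had a summit (20.7% of protein-coding genes), and the same 8 had one within 500 bp (17.0%). The 8 were all but Atg1 and Atg13, and the peaks of Atg1 lay inside the gene. Since the genes were chosen with such peaks known, nothing is read from these shares. The genes were also longer than usual, with a median length of 3.86 kb against 2.16 kb for protein-coding genes, and a longer body can hold more summits.

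The replicates gave the same genes. A strong call by the same rule was present at 9 of the 10 genes in each of replicates 1, 2 and 3, where 25.0%, 25.2% and 25.6% of protein-coding genes had one. In every replicate at once, 9 genes had such a call (19.5% of protein-coding genes), and 8 had one within 1 kb of a start (15.7%). With calls of any rank the count rose to 10 of 10, against 38.0% of protein-coding genes.

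The 18 peaks were of middling strength for this set. Their signals ran from 119 to 732 with a median of 192, and the whole IDR set ran from 105 to 2923 with a median of 189. Their ranks ran from 310, at Atg2, to 5663, in an intron of Atg1, and 9 of the 18 were at rank 3234 or better, the midpoint of the set. In the annotation, 9 summits were intergenic, 8 were in introns, 1 was in a 5′ UTR and 0 were in coding exons. These positions were not counted over the whole IDR set, so they are not compared with it.

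Most of these genes have the annotated start of a neighbour close by on the opposite strand. A start of another gene on the opposite strand lay within 1 kb upstream of the outermost start for 9 of the 10 genes, all but Atg13, at distances of 186 to 786 bp. Such a neighbour was present at 38.2% of protein-coding genes and at 56.3% of those with an IDR summit within 1 kb of a start, against 8 of 8 among the autophagy genes with such a summit. All 9 intergenic summits, at 7 genes, lay in the short stretch between the paired starts. Position alone therefore does not assign them to 1 gene of the pair.

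By the nearest start of any gene, 11 of the 18 summits were nearest to the autophagy gene and 7 to another gene. The autophagy gene's own start was nearest to at least 1 summit for 7 of the 10 genes, all but Atg7, Atg12 and Atg13, against 18.3% of protein-coding genes. For 4 of the 8 genes with a promoter summit, Atg2, Atg7, Atg12 and Atg17, the strongest such summit was nearer to the neighbour, where this held for 28.1% of all genes with a promoter summit. The nearest gene also changed between replicates at 4 of the 8, Atg4b, Atg7, Atg12 and Atg17. It was the same in every replicate for the other 4, being CG12093 at Atg2 and the gene itself at Atg8a, Atg9 and Atg18a. The changes between replicates were not counted over all genes, nor the 11 of 18 over all IDR peaks. Nothing particular to these genes is read from either count.

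**Figure D1:**
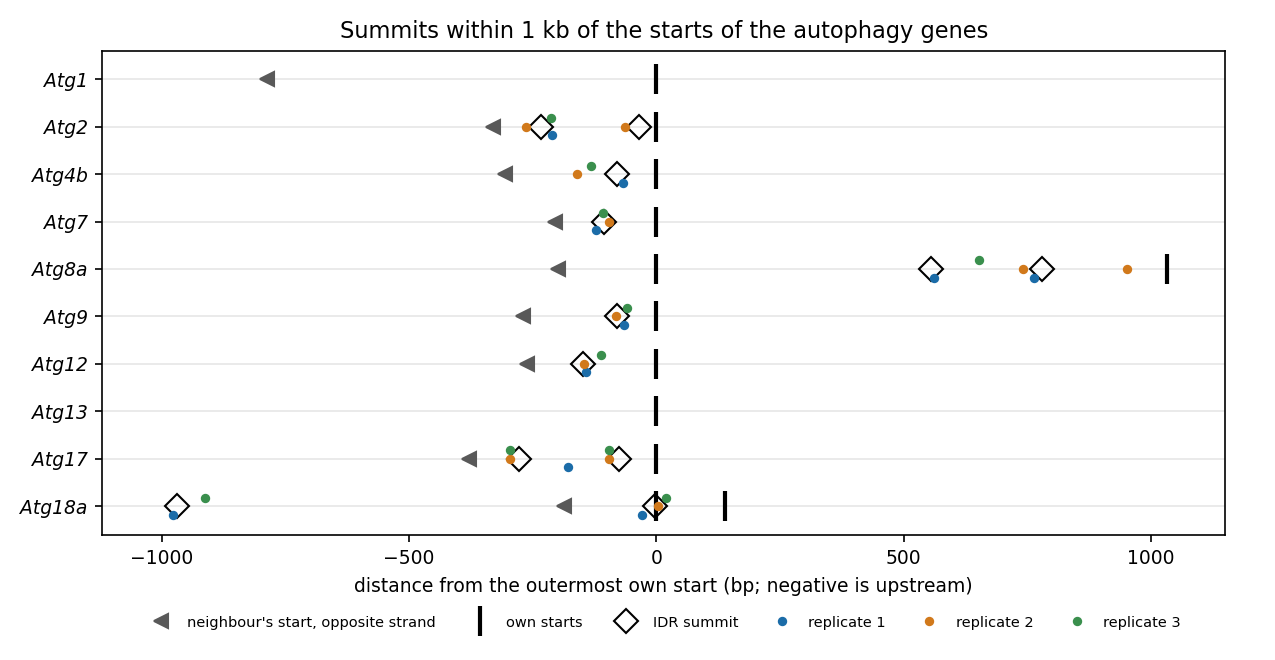
Position of summits at the 10 genes, in bp from each gene's outermost own start, with positive values inside the gene. Diamonds are IDR summits, dots are strong calls of the 3 replicates, black bars are own starts and triangles are the opposite-strand start of the neighbour. At 7 genes summits lie between the paired starts, and Atg13 has neither an IDR summit nor a strong call.

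The initiation complex was the most uneven group: Atg17 had a strong promoter peak, Atg1 had peaks only inside the gene, and Atg13 had none. Atg17 (FBgn0037363, chromosome 3R, dm6, 5669713 to 5679930, plus strand) is the scaffold of the Atg1 complex, related to mammalian FIP200. Its strongest peak spanned 5669335 to 5669518 and had an IDR signal of 520, rank 675 of 6469. The summit was 278 bp upstream of the Atg17 start and 101 bp from the start of Xe7, which lies 379 bp from that of Atg17. The matched calls had signals of 187 in replicate 1, 141 in replicate 2 and 187 in replicate 3, at ranks 819, 638 and 667. Replicate 2 had the lowest signal and the best rank, and the mean was 172 ± 26.2 (SD, n = 3).

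The Atg17 promoter held a second IDR summit on the side of Atg17 itself. It lay 75 bp upstream of the Atg17 start, had a signal of 199 and ranked 3053. Replicates 2 and 3 resolved it with separate calls 96 and 95 bp upstream, at signals of 64.6 (rank 2176) and 83.2 (rank 2528). Replicate 1 had a single call for the whole stretch with its summit between the others, 178 bp upstream, which made its nearest gene Atg17. The second summit therefore has 2 replicate calls of its own. Another Atg17 peak lay 3019 bp inside the gene in a 5′ UTR, with a signal of 129 and rank 5171. Its calls had signals of 50.3 in replicate 1 and 48.6 in replicate 3, while replicate 2 had none with a summit within 250 bp. The other 17 of the 18 peaks had a strong call within 250 bp in every replicate, some of them shared with a stronger summit alongside. With calls matched by nearest summit the count was 15, and the second summit of Atg2 and the summit 5991 bp inside Atg1 also lacked a strong call in at least 1 replicate. Neither count was taken over the whole IDR set, which the authors selected for reproducibility, so nothing is read from them about these genes.

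Atg1 (FBgn0260945, chromosome 3L, 12784429 to 12805116, minus strand) is the protein kinase that starts autophagosome formation, and it is the longest of the 10 genes at 20.7 kb. Its 4 IDR peaks were all intronic and over 1 kb from its start. The strongest spanned 12792963 to 12793398, with an IDR signal of 423 and rank 991. It lay 11935 bp inside Atg1 and also in an intron of CG42709, a gene on the opposite strand that sits within Atg1 from 12790192 to 12796084. The nearest start was that of CG42709, 1963 bp away. The signals were 181, 84.8 and 154 in replicates 1, 2 and 3, at ranks 868, 1453 and 944, with a mean of 140 ± 49.6 (SD, n = 3). Replicate 2 was the lowest by signal and by rank.

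The other 3 Atg1 peaks were nearest to the Atg1 start. The peak closest to it lay 1260 bp downstream, with an IDR signal of 152 and rank 4244. Its replicate signals were 52.4, 43.2 and 41.7, at ranks 5154, 3679 and 6360, so in replicate 3 it was close to the end of the strong calls. A pair of overlapping peaks lay 6191 and 5991 bp inside the gene, with IDR signals of 162 (rank 3910) and 119 (rank 5663). Their shared strongest calls had signals of 80.0, 40.9 and 51.7, a mean of 57.5 ± 20.2 (SD, n = 3). By nearest summit, the peak at 5991 bp matched calls of 80.0, 21.6 and 19.3 (ranks 3003, 8438 and 16222), and only the call of replicate 1 was strong.

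The Atg1 promoter itself held weak calls. Replicate 1 had calls 475 and 709 bp downstream of the start, with signals of 23.5 (rank 12676) and 31.8 (rank 9146). Replicate 3 had one 461 bp downstream with a signal of 35.8 (rank 7654), and another 254 bp downstream with a signal of 12.2 (rank 27967). Replicate 2 had none within 1 kb. The pooled call there, 462 bp downstream, had a signal of 55.8 and rank 13012, below the IDR set. Sap130, whose start lies 786 bp upstream of that of Atg1, had a call 90 bp from its own start in replicate 3, with a signal of 12.9 and rank 26323. Just outside the rule, the nearest IDR summit on the Sap130 side was 1456 bp upstream of Atg1, at rank 2173. Counting calls of any rank, Atg1 had 16, 8 and 20 in replicates 1, 2 and 3, and 3, 3 and 5 of these were strong.

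**Figure D2:**
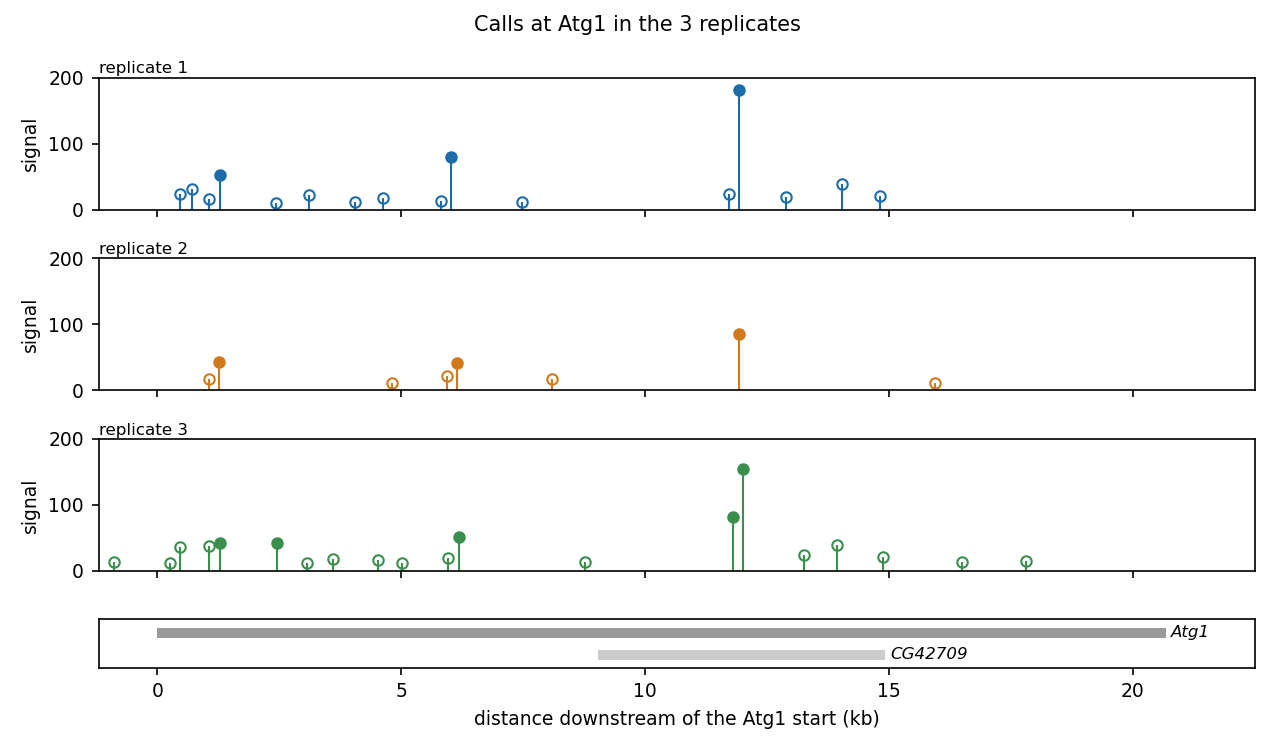
Signal of each call along Atg1, in kb downstream of its start, for the 3 replicates. Filled points are strong calls, open points are weaker ones, and the bars below mark Atg1 and the nested CG42709. The highest points in each replicate, 181, 84.8 and 154, lie inside both genes, and all calls within 1 kb of the Atg1 start are open.

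Atg13 (FBgn0261108, chromosome 3R, 8349815 to 8352817, plus strand), the regulatory partner that binds Atg1, was without an IDR peak or a strong call. At its start, replicate 1 alone had a call, 164 bp downstream, with a signal of 22.3 and rank 13328. The call present in every replicate lay in the 3′ UTR, 2577, 2488 and 2589 bp from the start in replicates 1, 2 and 3. Its signals were 26.3, 10.7 and 20.7, at ranks 11217, 26587 and 14913. All were far down the lists, where background calls are included, and the pooled call there had rank 11396. Its significance was 1.06 on the −log10 q scale. The IDR summit nearest to the Atg13 start was 4729 bp from it, at 8354544 and rank 2790. It lay beyond the end of the gene at 8352817, so it was closer to that end than to the start.

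Among the genes of membrane supply, Atg2 had the strongest peak of all 10 genes, Atg18a had a summit almost on its start, and Atg9 had 1 moderate peak. Atg2 (FBgn0044452, chromosome 3L, 2774338 to 2780677, plus strand) transfers lipid to the growing membrane. Its peak spanned 2773955 to 2774285 with an IDR signal of 732 and rank 310. The summit lay 234 bp upstream of Atg2 and 97 bp from the start of CG12093, and the starts are 331 bp apart. Signals were 250 in replicate 1, 224 in replicate 2 and 273 in replicate 3, at ranks 440, 212 and 279. The summits in the replicates lay 210, 263 and 213 bp upstream, nearer to CG12093 in every case, and the mean signal was 249 ± 24.6 (SD, n = 3).

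A second, weaker IDR summit lay 34 bp upstream of the Atg2 start, with a signal of 141 and rank 4665. Replicate 2 had its own call there, 63 bp upstream with a signal of 60.7 (rank 2384). Replicate 3 had one 14 bp upstream with a signal of 32.2, which at rank 8726 was not strong, and replicate 1 had none. As at Atg17, the strongest summit was on the side of the neighbour and the weaker one next to the autophagy gene.

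Atg18a (FBgn0035850, chromosome 3L, 8186857 to 8191118, plus strand) binds the lipid phosphatidylinositol 3-phosphate on the forming membrane. Its peak, 8186637 to 8187072, had an IDR signal of 270 and rank 1944, with the summit 2 bp upstream of the outermost start. Signals were 85.1, 87.0 and 99.5 in replicates 1, 2 and 3, at ranks 2755, 1401 and 1916, a mean of 90.5 ± 7.82 (SD, n = 3). The replicate summits lay 29 bp upstream, 3 bp downstream and 19 bp downstream of a start, so they bracketed it, although the start of ERR, which encodes a nuclear receptor, is only 186 bp away. A second peak lay 969 bp upstream in an intron of ERR, just inside the 1 kb limit, and its nearest start was that of ERR, 218 bp away. It had a signal of 188 and rank 3259, and replicate signals of 79.4, 39.1 and 66.4. In replicate 2 its summit was 1028 bp upstream, just outside the limit.

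Atg9 (FBgn0034110, chromosome 2R, 16294400 to 16297232, plus strand) is a transmembrane protein that travels in vesicles to the site of formation and moves lipid between the layers of the membrane. Its peak, 16294103 to 16294538, had an IDR signal of 186 and rank 3302. Signals were 66.1, 63.2 and 52.4 in replicates 1, 2 and 3, at ranks 3806, 2250 and 4741, a mean of 60.5 ± 7.19 (SD, n = 3). The IDR summit lay 79 bp upstream of Atg9, and the replicate summits 66, 81 and 59 bp upstream. All were nearer to Atg9 than to CG7747, whose start is 270 bp away.

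The conjugation genes Atg4b, Atg7, Atg8a and Atg12 each had a peak within 500 bp of a start, at IDR ranks from 1747 to 3651 for the strongest of each there. Atg4b (FBgn0038325, chromosome 3R, 15353720 to 15356924, minus strand) is a cysteine protease that trims Atg8 proteins before they are attached and frees them later. Its peak, 15356785 to 15357220, had an IDR signal of 293, rank 1747 and a summit 79 bp upstream of the start. Signals were 95.1 in replicate 1, 123 in replicate 2 and 81.5 in replicate 3, at ranks 2363, 834 and 2610, so here replicate 2 was the highest by both measures. The mean was 99.9 ± 21.2 (SD, n = 3). The summits lay 68, 160 and 132 bp upstream, and that of replicate 2 was nearer to Hibch, which encodes an enzyme of valine breakdown and starts 305 bp from Atg4b.

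Atg7 (FBgn0034366, chromosome 2R, 18620466 to 18625044, minus strand) is the E1-like enzyme that activates both Atg8 and Atg12. Its promoter peak, 18624932 to 18625367, had an IDR signal of 253 and rank 2183. The summit was 106 bp upstream of Atg7 and 99 bp from the start of Sec6, a subunit of the exocyst, so the starts are almost equally far. Signals were 84.4, 59.2 and 107 in replicates 1, 2 and 3, at ranks 2786, 2469 and 1716, a mean of 83.7 ± 24.2 (SD, n = 3). A stronger peak lay 3533 bp inside Atg7 in an intron, 30 bp from the start of CG5335, a gene on the opposite strand nested in Atg7. It had an IDR signal of 283 and rank 1819, with signals of 106, 64.8 and 125. Its ranks were 2026, 2156 and 1392, so in both peaks replicate 3 was the highest by signal and by rank.

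Atg8a (FBgn0052672, chromosome X, 10764878 to 10768338, minus strand) is the ubiquitin-like protein, related to the mammalian GABARAP and LC3 proteins, that is attached to lipid and stays on the autophagosome. The gene has 3 annotated starts, and both of its IDR summits were upstream of an inner start and inside an intron of the longest transcript. They lay 253 and 477 bp upstream of that start, with signals of 195 (rank 3123) and 159 (rank 4029). The matched calls of the stronger peak had signals of 82.2, 50.2 and 65.2 in replicates 1, 2 and 3, at ranks 2880, 3052 and 3575. The mean was 65.9 ± 16.0 (SD, n = 3), and their summits were spread over 269, 80 and 379 bp upstream. The weaker peak shared the calls of replicates 1 and 3, and by nearest summit its signals were 71.1, 41.5 and 65.2. No IDR summit lay in the 199 bp between the outermost Atg8a start and that of BTBD9.

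Atg12 (FBgn0036255, chromosome 3L, 12136967 to 12137559, plus strand) is the ubiquitin-like protein joined to Atg5, and at 0.593 kb it is the shortest of the 10 genes. Its peak, 12136600 to 12137035, had an IDR signal of 172 and rank 3651. The summit was 149 bp upstream of Atg12 and 112 bp from the start of CG5645, with 261 bp between the starts. Signals were 62.5, 49.1 and 45.2 in replicates 1, 2 and 3, at ranks 4122, 3137 and 5717, a mean of 52.2 ± 9.08 (SD, n = 3). In replicate 3 the summit was 112 bp upstream and nearer to Atg12, and in the other two it was nearer to CG5645. A strong call at Atg12 was thus present in every replicate, but it ranked low in the IDR set compared with that of Atg2.

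**Figure D3:**
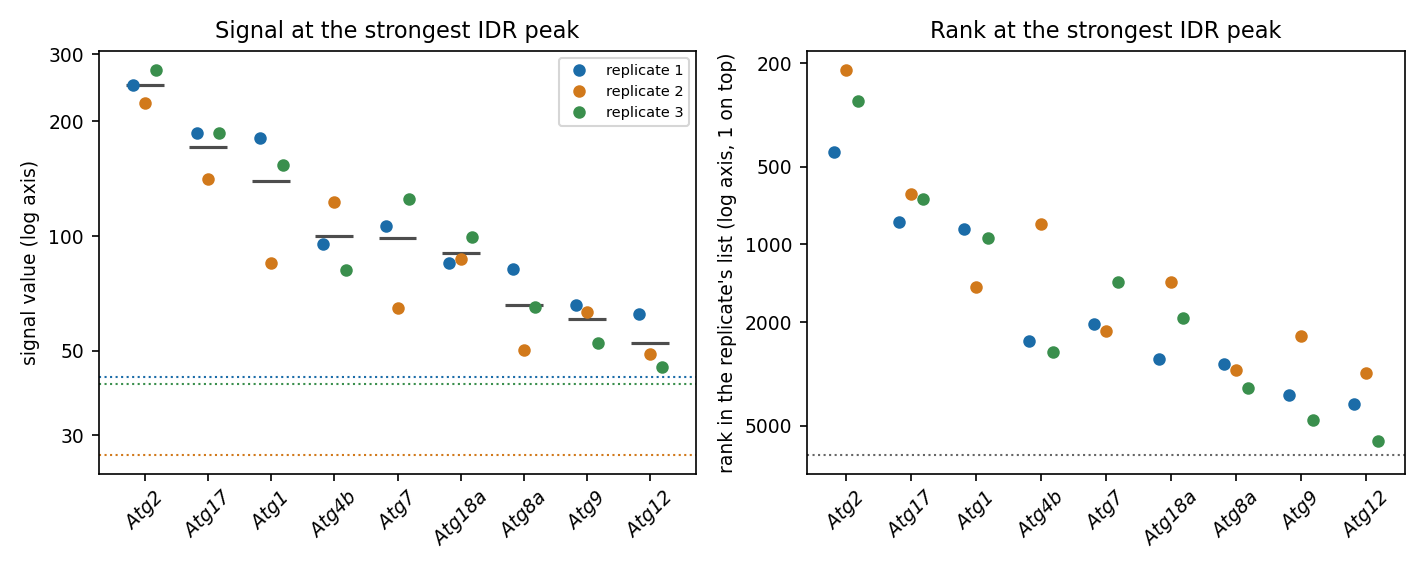
Signal (log axis) and rank of the strongest IDR peak of each of the 9 genes in replicates 1, 2 and 3. Dotted lines mark each replicate's 6469th call, at 42.7, 26.7 and 41.0 in signal. Atg2, with signals of 224 to 273, stands above the other genes in every replicate, and Atg12, with 45.2 to 62.5, is the lowest.

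The members were set beside other genes of autophagy from a list of 39 genes ordered by role, which includes the 10. In all, 17 of the 39 had an IDR peak by the same rule, 9 among the 10 and 8 among the other 29, or 27.6% of these. That share is near the 24.5% of protein-coding genes. In all 8, the start nearest to the strongest peak was the gene's own.

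By role, the other initiation gene, Atg101, had no IDR peak. Of 5 genes of the lipid kinase complex, which makes the lipid that Atg18a binds, 2 had one. They were Vps15, the kinase-like subunit, at rank 2525, and Uvrag at rank 3923. Signals at Vps15 were 98.3, 54.9 and 61.8 in replicates 1, 2 and 3, with the summit 123 bp upstream of a start. At Uvrag they were 77.4, 38.8 and 58.4, with the summit 56 bp upstream. The ranks were 2260, 2716 and 3844 at Vps15 and 3130, 4226 and 4135 at Uvrag, so replicate 1 was the highest in both genes by signal and by rank.

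Of the other 6 conjugation genes, 1 had an IDR peak. This was Atg5, the partner of Atg12, with a summit 4496 bp inside the gene at rank 1332 and signals of 142, 84.1 and 119. No IDR peak met the rule at Atg3, Atg4a, Atg8b, Atg10 or Atg16. The other gene of membrane supply, Atg18b, had none, and neither did the receptor ref(2)P or the adaptor bchs.

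Of 12 genes for fusion with the lysosome, 4 had an IDR peak. Snap29, a SNARE protein, had signals of 87.6, 54.2 and 105 in replicates 1, 2 and 3, with a summit 87 bp upstream at rank 2424. Epg5, a tether, had signals of 66.8, 50.6 and 75.1 with a summit 140 bp upstream at rank 3046. Syx17, the SNARE protein of the autophagosome, had signals of 67.1, 23.1 and 51.6 at rank 4170, and that of replicate 2 was below its strong calls. Rab7, a small GTPase of late endosomes, was near the end of the set at rank 6400, with signals of 48.0 and 44.4 in replicates 1 and 3 and no matched call in replicate 2. The other 8 fusion genes had none.

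Of 2 transcription factors of autophagy genes, foxo had 5 IDR peaks and Mitf had none. The strongest foxo peak, at rank 1073, lay inside the gene, 3670 bp downstream of the nearest of its annotated starts. The signals of that foxo peak were 181, 55.3 and 193, at ranks 874, 2696 and 618, so replicate 2 was the lowest by both measures.

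**Figure D4:**
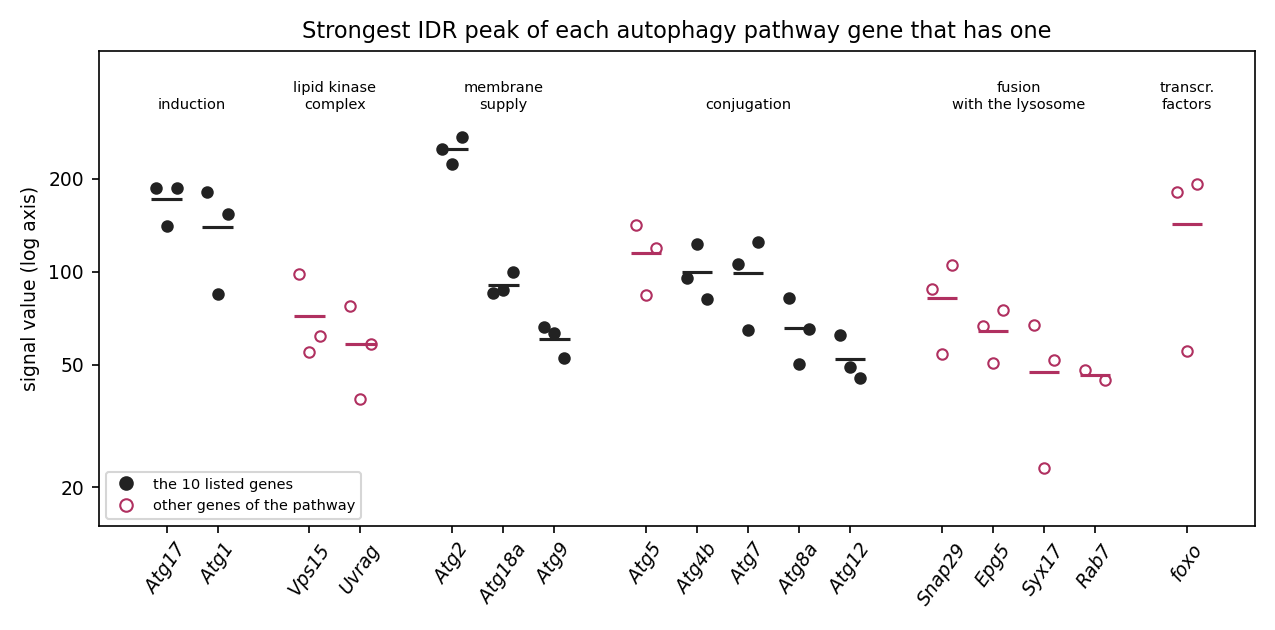
Signal of the strongest IDR peak in each replicate (points; log axis) and its mean (line) for the 17 autophagy genes that had one, ordered by role. Filled points are the 10 listed genes and open points the others. Atg2, at 249, has the highest mean, and Rab7, at 46.2 over 2 replicates, the lowest.

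Base composition was taken in windows of 201 bases centred on the summits. The 18 windows had a median GC content of 35.3%, from 24.4% to 48.3%. The median was 33.3% for all IDR windows and 42.3% for windows on the starts of protein-coding genes. The median at these genes was thus closer to that of all IDR windows than to that of start windows. The 18 windows are themselves part of the IDR set, so nothing particular to these genes is read from this.

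Motifs were searched on both strands in the same windows. The DRE, TATCGATA, a promoter element bound by DREF, was present in 3 of the 18, at the promoters of Atg7 and Atg12 and at the second summit of Atg17. It was present in 1.33% of IDR windows and 6.44% of start windows. The sequence GAGAG, which GAGA factor binds, was present in 4 windows, at Atg1, Atg8a, Atg9 and Atg17, against 21.9% of IDR windows and 25.0% of start windows. TATAAA was present in 4 windows, at Atg7, Atg9, Atg12 and Atg18a (39.1% and 26.9%). A run of 8 A bases, AAAAAAAA, was in 3 windows, at Atg1, Atg8a and Atg17 (19.8% and 10.5%).

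The remaining motifs were rare here. GTAAACA, a forkhead site of the kind foxo binds, was in 1 window, that of the Atg17 peak in the 5′ UTR (5.35% of IDR windows and 6.12% of start windows). CACGTG, an E-box of the kind Mitf binds, was in 0 of 18 (1.62% and 2.80%), and GGTCACAC, the core of a motif common at fly promoters, was in 0 of 18 (0.881% and 5.68%). Overlapping windows of paired summits share bases, and the windows of the 3 strongest peaks, at Atg2, Atg17 and in the Atg1 intron, held none of the 7 motifs. A match says only that these letters are present.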

How the data were processed

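Peak lists in genome build dm6 were used for 3 biological replicates, their pooled reads and the IDR set. Per the labels, the lists of single replicates and of the pooled reads were relaxed ones, made from the aligned reads with 1 further file that is not described. Each call carried a signal value (column 7) deposited by the authors and a −log10 q value, also deposited, used only where the text says so. The sources used here do not name the peak caller, aligner or thresholds, and give no read depth, so the depth behind a signal is unknown. The dm3 lists were not used.

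Summits were assigned to genes of Ensembl release 115, without transposable elements, with Python 3.11.15 and pandas 2.3.3, tested on simulated peaks. Each simulated gene had a single start and lay apart from the others, so paired starts, nested genes and inner starts were not tested. Coordinates are 1-based. The genes, the pathway list and the motifs were chosen with earlier results of these data known. All 10 genes are named, together with the pathway genes that had an IDR peak. No test was run, since there was 1 group. SD covers the 3 samples and includes any difference in scale. Alternatives changed the window, the matching of calls, the number of strong calls and the replicates used.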

Additional observations from a re-analysis of the deposited data

How the results depend on the processing

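The number of genes with an IDR peak by the rule was 9 with a window of 500 bp (22.8% of protein-coding genes), with a window of 2 kb (28.8%), with overlap of the interval in place of the summit (25.9%), and with the outermost start alone (24.5%). It was 8 with starts only (20.7%) and 7 with IDR peaks at rank 3234 or better (16.0%). The number with their own start nearest was 7 with windows of 500 bp (17.6%) and 2 kb (19.2%) and with protein-coding starts only (18.8%), and 4 with IDR peaks at rank 3234 or better (11.4%), which leaves fewer peaks. Genes with a strong call in every replicate numbered 9 (19.5%), or 6 with the strongest 3000 calls (12.3%) and 10 with all calls (38.0%). Leaving out each replicate in turn gave 9 to 9 genes (20.8% to 21.5%). The median over the 18 peaks of the mean signal was 74.8, from 69.0 to 81.0 when a replicate was left out and 73.3 with calls matched by nearest summit. Paired summits at Atg1, Atg2, Atg8a and Atg17 shared some or all of their matched calls, so the 18 values are not all separate measurements. Of the 18 peaks, 3 moved by more than 1 SD with that matching, the second summits of Atg2 (249 to 114) and Atg17 (172 to 111) and the Atg17 peak in the 5′ UTR (49.5 to 38.2). No paired analysis was possible because there was 1 group. Unknown read depth and scale limit every comparison of signal between replicates.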
